A study of Mus musculus with 4 samples.

Results

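Deletion of *Napepld* in adipocytes was examined on the control diet (CT) by setting the cKO-CT array against the WT-CT array, which are 2 of the 4 arrays of the series. Every gene named by a single-gene probe set was a member, which gave 19938 genes. All mice were C57Bl6 males carrying *Napepld* lox/lox alleles. The cKO mice also carried a Cre recombinase under the *Fabp4* (aP2) promoter, and the WT mice were littermates without Cre. The mice were 8 weeks old when the diets began, were fed either the AIN93M control diet or the D12492 high fat diet (HFD) for 8 weeks, and were 16 weeks old when subcutaneous adipose tissue was taken after a 6-h fast.

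Each array held RNA pooled within its group, from 5 mice by the methods and 4 to 5 by the labels, chosen for RNA quality. An array is therefore 1 sample of its group, the spread between mice is not seen, and no test or P value could be given. The *Fabp4* promoter is active in adipocytes, and activity in macrophages has been described for some lines with this Cre. The tissue also holds endothelial, stromal and immune cells, so in this bulk RNA fewer cells of a type and less RNA per cell cannot be told apart. Values are log2 levels, and a log2 ratio is cKO-CT minus WT-CT unless another pair is named.

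NAPE-PLD releases N-acylethanolamines, a group of lipid mediators that includes anandamide, palmitoylethanolamide and oleoylethanolamide, from membrane phospholipid precursors. Subcutaneous fat can hold beige adipocytes, which burn fuel for heat through UCP1 in mitochondria and are gained or lost with temperature, diet and adrenergic tone. Oleoylethanolamide and palmitoylethanolamide are known ligands of the nuclear receptor PPARα, which controls genes of fatty acid oxidation.

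The log2 level of *Napepld* was 8.31 in WT-CT and 7.78 in cKO-CT, which gave a log2 ratio of -0.53 (1.44-fold lower). On the HFD arrays it was 8.01 in WT-HFD and 7.94 in cKO-HFD, a ratio of -0.06. The position of its probes with respect to the deleted exons is not given in the sources used here, so the level is no check of the genotypes, and cells without Cre keep the gene. The labelled tissue was checked against defining markers by the 95th percentile of the 1027 olfactory receptor (*Olfr*) genes, which are not used in fat and stand for background. This level was 5.39 on WT-CT and 5.28 on cKO-CT. All 7 measured white adipocyte markers lay far above it on both arrays, with *Adipoq* (adiponectin) at 12.44 and 12.66 and *Plin1*, the main coat protein of lipid droplets, at 12.16 and 12.23. The 5 skeletal muscle markers were also above it, with *Ckm* (muscle creatine kinase) at 11.05 on WT-CT and 11.29 on cKO-CT, so both pools contained muscle RNA. B cell markers lay below background, and of 4 T cell markers only *Cd3e* exceeded it, at 6.27 and 6.29.

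Past 1.5-fold, 327 genes were higher in cKO-CT (1.64% of 19938) and 303 were lower (1.52%). The split depended on scaling, since centring each array on its median gene moved all ratios by 0.0285 and turned the counts into 416 higher and 255 lower, or 62.0% higher in place of 51.9%. Among the 12311 genes above the *Olfr* level on at least 1 of the arrays, 298 were higher (2.42%) and 159 were lower (1.29%). Of the 303 lower genes, 144 were below that level on both arrays, against 29 of the 327 higher genes. The central 95% of log2 ratios ran from -0.39 to 0.62 for genes with a mean level of 7 to 9, and from -0.55 to 0.64 above 9. It ran from -0.57 to 0.37 below 5 and from -0.50 to 0.52 at 5 to 7. A rise of 1.5-fold (0.585 on the log2 scale) therefore lay just inside the upper edge above 7 and beyond it below 7. A fall of that size lay beyond the lower edge at every level, and furthest beyond it at 7 to 9.

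The largest ratios among genes with a level of at least 7 on 1 or both arrays divided into recognisable groups. On the higher side stood *Sfrp5*, a secreted Wnt antagonist (7.53 on WT-CT and 9.22 on cKO-CT), *Ccn1*, a matricellular protein (6.83 and 8.37), and *Acta2*, smooth muscle actin (9.42 and 10.90). They were followed by *Thbs1* (thrombospondin 1), the amino acid transporter *Slc7a8*, the receptor tyrosine kinase *Ret*, *Lbp* (lipopolysaccharide binding protein), the actin-binding protein *Synpo2*, *Ccn5* and the caveolar protein *Cavin3*, with ratios from 1.05 to 1.26. *Lipf*, a lipase best known from the stomach, and *Med28*, a subunit of the Mediator complex, completed the 12. On the lower side, 6 of the 12 belonged to pancreatic enzymes, which reached that level on WT-CT and not on cKO-CT and so were admitted by the array where they were high. The other 6 were *Elovl3*, *Ucp1*, *Acot11*, *Acot4*, *Pank1* and the muscle gene *Mybpc1*.

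**Figure D1:**
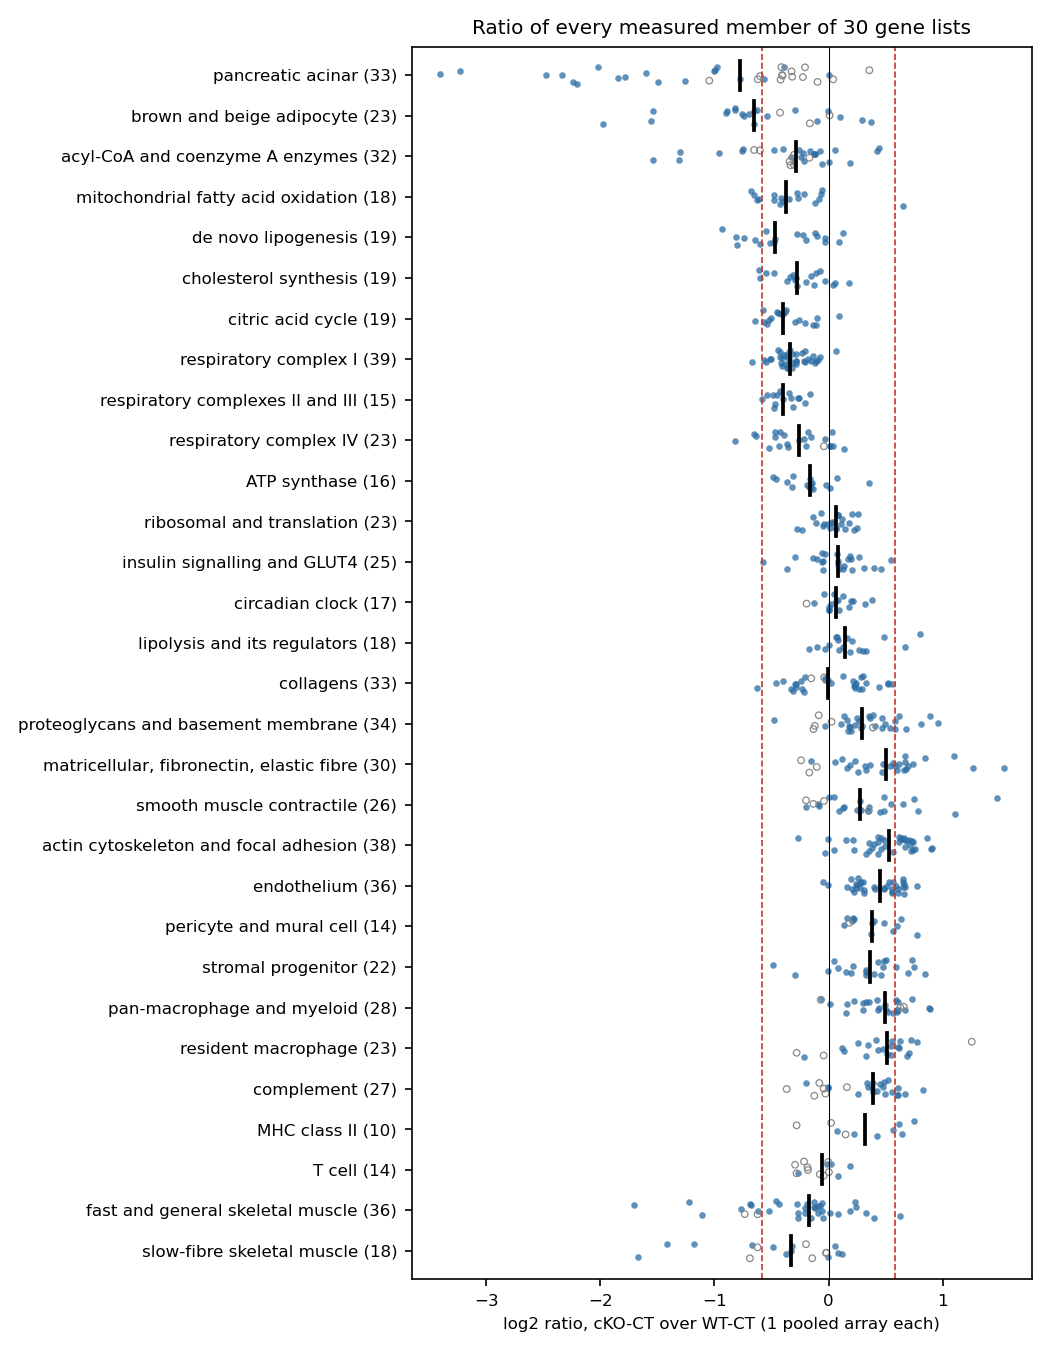
Log2 ratio of cKO-CT over WT-CT for every measured member of 30 gene lists, with the number of genes in parentheses. Each point is a gene, filled where it exceeded the *Olfr* level on at least 1 of the 2 arrays and open where it did not, the black bar is the median and the red dashed lines mark 1.5-fold. Lists of oxidative and lipid-making enzymes lie left of 0, and ribosomal, insulin signalling, clock and collagen genes lie on it. The other matrix lists and the actin, vascular and macrophage lists lie right of 0.

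Pancreatic acinar genes were set apart, because the exocrine pancreas is no part of subcutaneous fat. Acinar cells make digestive proenzymes in such quantity that a small share of pancreatic RNA can be measured. Of 33 acinar genes measured, 19 were lower in cKO-CT past 1.5-fold and none was higher, with a median log2 ratio of -0.78, against -0.005 over all genes. *Cpa1* (carboxypeptidase A1) was 8.62 and 5.21 on CT, in WT and then cKO, and 5.81 and 5.43 on HFD. *Ctrb1* (chymotrypsinogen) was 8.62, 5.39, 5.75 and 5.55 in the same order. *Clps*, the colipase, was 7.88 on WT-CT and 6.10 on cKO-CT. For these enzymes WT-CT alone was high, and the other 3 arrays lay close together near background.

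The pattern held across the list. On WT-CT, 19 of the 33 acinar genes exceeded the *Olfr* level, and on cKO-CT 9 did. The genotype ratio on HFD, between arrays that share nothing with the CT pair, had a median of -0.04 over the same genes, with 1 higher and 1 lower. Of the 37 genes lower by 2-fold on CT, 14 were acinar. The islet list, which holds endocrine genes of the pancreas, had 1 of 10 genes lower and a median of -0.26, and 4 of these genes exceeded background on WT-CT. Acinar transcripts thus distinguished the WT-CT array from the 3 others, and their part in any other ratio of the pair was not tested.

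**Figure D2:**
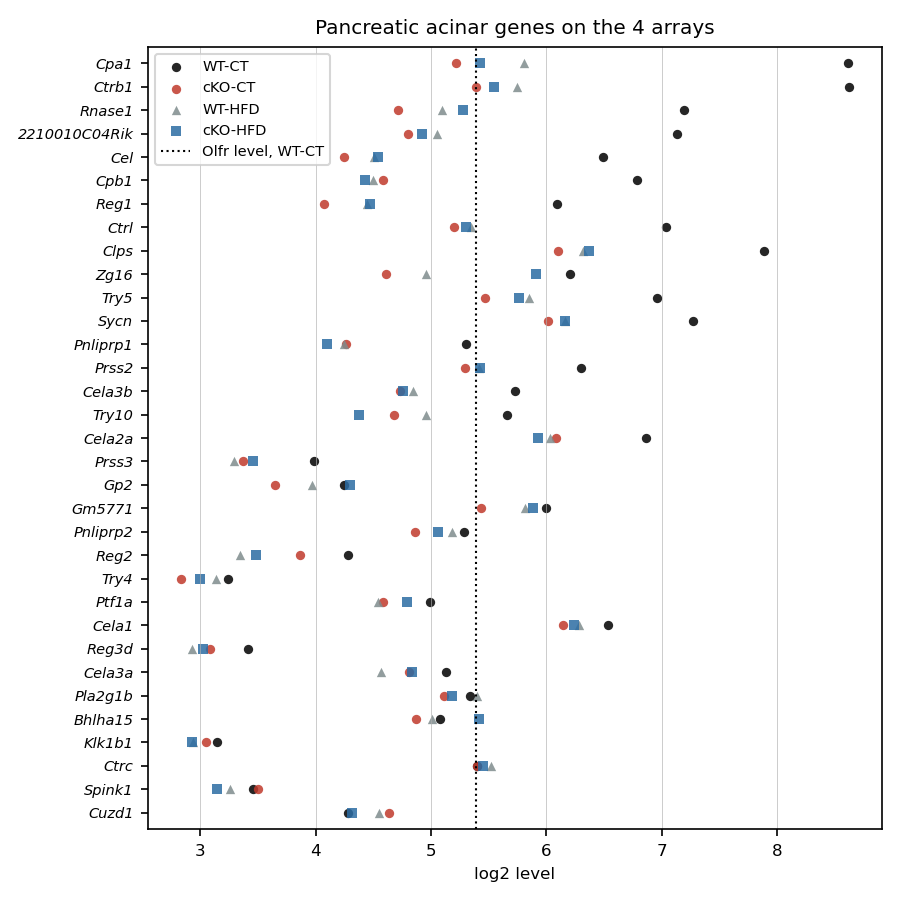
Log2 levels of 33 pancreatic acinar genes on each of the 4 arrays, ordered by the cKO-CT over WT-CT ratio, with the *Olfr* level of WT-CT as a dotted line. The black points (WT-CT) stand to the right of the other 3 arrays for *Cpa1* at 8.62 and for the genes under it, and the arrays converge at the foot of the plot.

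Genes of brown and beige adipocytes were lower in cKO-CT. Of 23 measured, 13 were lower by at least 1.5-fold and none was higher, the median log2 ratio was -0.65, and 19 lay below 0. *Ucp1*, the uncoupling protein, was 11.52 on WT-CT and 9.96 on cKO-CT (2.94-fold), and both HFD arrays lay lower still at 7.10 and 6.74. *Elovl3*, an elongase of very long chain fatty acids, was 8.91 and 6.94 on CT and below background on both HFD arrays. *Acot11*, which hydrolyses acyl-CoA in brown fat, was 8.33 and 6.79 (2.90-fold).

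The other lower members covered fuel handling and the mitochondrion. *Fabp3*, a fatty acid carrier protein, had a ratio of -0.89, as did *Slc27a2*, which takes up and activates very long chain fatty acids. *Cox7a1* and *Cox8b*, subunits of cytochrome c oxidase typical of thermogenic fat and muscle, were -0.82 and -0.65. *Ppargc1b*, a coactivator of mitochondrial genes, was -0.65, and its relative *Ppargc1a* was -0.54, with its 2 probe sets at -0.33 and -0.75. The factors that set the identity of thermogenic adipocytes did not follow, with *Prdm16* at 6.61 and 6.98 and *Ebf2* at a ratio of 0.10, neither past 1.5-fold. *Dio2*, the deiodinase of brown fat, was at background on both arrays (4.69 and 4.70). On HFD, where 21 of the 23 genes were lower in WT than on CT, *Prdm16* not among them, the median ratio of the list was -0.01.

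Outside the thermogenic genes, ratios lay below 0 across the oxidative machinery as a whole, by amounts that for most genes were smaller than 1.5-fold. The citric acid cycle had 18 of 19 genes below 0, a median of -0.40 and 1 gene lower by 1.5-fold (6 after cyclic loess between arrays). Respiratory complex I had 38 of 39 below 0 with a median of -0.34, and complexes II and III had 15 of 15 below 0, from -0.58 to -0.16. The median was -0.26 in complex IV and -0.16 in ATP synthase. Over the 108 genes of these lists together the median was -0.33 on CT and -0.03 on HFD. Pyruvate entry went the same way, with a median of -0.34 over 14 genes.

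Single enzymes differed in how far they moved. *Pdhb*, the beta subunit of pyruvate dehydrogenase, was 8.71 on WT-CT and 7.57 on cKO-CT (2.20-fold), while its partners *Pdha1*, *Dlat* and *Dld* had ratios of -0.55, -0.54 and -0.57. *Sucla2*, the ATP-forming succinyl-CoA ligase subunit, was 9.43 and 8.79, and *Cs*, the citrate synthase that opens the cycle, was 11.13 and 10.69. *Ndufs1*, the largest subunit of complex I, was 8.86 and 8.20. *Uqcrfs1*, the Rieske protein of complex III, was 7.52 and 6.95, and *Sdha*, the flavoprotein of complex II, was 10.97 and 10.43. *Suclg2*, at 0.09, was the 1 cycle gene above 0, and the assembly factor *Ndufaf2*, at 0.07, the 1 complex I gene. In complex IV 5 of 23 genes lay above 0, from *Cox4i2* at 0.01 through *Cox10*, *Cox18* and *Cox19* to *Surf1* at 0.14, and in ATP synthase 3 of 16 did, *Atp5g3*, *Atp5j* and *Atpif1*, its inhibitor protein, at 0.36.

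Genes of mitochondrial biogenesis and of mitochondrial ribosomes moved less. Of 27 genes of biogenesis, import and dynamics, *Mtfp1*, which promotes mitochondrial fission, passed 1.5-fold (6.97 and 5.92), and the median was -0.18. The orphan receptors *Esrra* and *Esrrg*, which act with PGC-1 coactivators on oxidative genes, had ratios of -0.43 and -0.57. Mitochondrial ribosomal proteins had a median of -0.10 over 77 genes with none past 1.5-fold, and cytosolic ribosomal proteins had a median of 0.04 over 58. The proteasome family had a median of -0.08 over 40 genes and none past 1.5-fold. The ratios of the respiratory subunits were therefore more negative than those of the other large housekeeping complexes on the same arrays.

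**Figure D3:**
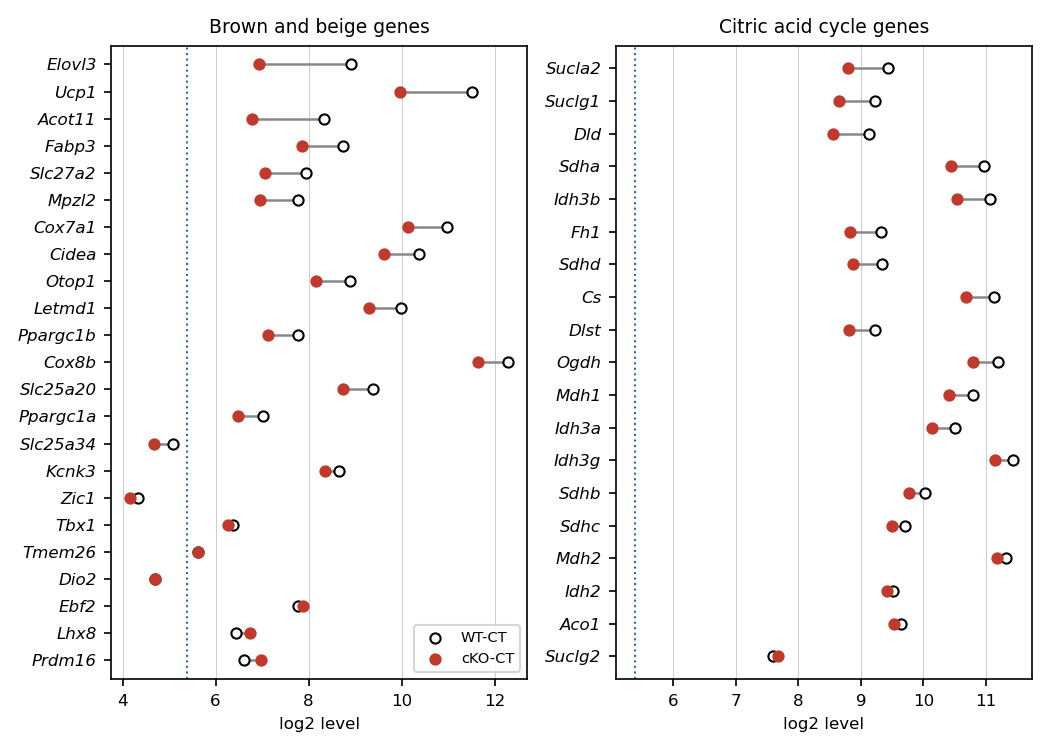
Log2 level of each brown and beige adipocyte gene (left) and citric acid cycle gene (right) on WT-CT (open circles) and cKO-CT (red circles), with the higher of the 2 *Olfr* levels dotted. The brown and beige genes differ widely in the length of the step, from 1.98 for *Elovl3* to none for *Dio2*, whereas 18 of the 19 cycle genes step down, by 0.65 at most.

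Enzymes that make, split or activate acyl-CoA held some of the steepest ratios outside the acinar genes. Of 32 genes, 8 were lower by at least 1.5-fold, none was higher, and 27 lay below 0 (median -0.28). *Pank1*, pantothenate kinase, which takes the committed step of coenzyme A synthesis, was 8.49 on WT-CT and 7.19 on cKO-CT (2.47-fold). *Acot4*, a peroxisomal thioesterase, was 7.04 and 5.72 (2.49-fold). *Acsm3*, a medium chain acyl-CoA synthetase, was 8.11 and 7.15. *Acss1*, the mitochondrial acetyl-CoA synthetase, was 7.80 and 7.05, and *Acsl5*, a long chain synthetase, 8.33 and 7.58. All 11 measured *Acsl*, *Acsm* and *Acss* symbols lay below 0. Of 13 *Acot* thioesterases 10 lay below 0, with a median of -0.26, and the 3 above 0 were *Acot7* at 0.43, *Acot8* at 0.44 and *Acot9* at 0.19. On HFD the list had a median of 0.03 and no gene past 1.5-fold.

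Mitochondrial fatty acid oxidation had 17 of 18 genes below 0, a median of -0.37, 4 genes lower and 1 higher by at least 1.5-fold. The 4 were *Hadhb* and *Hadha*, the subunits of the trifunctional protein (10.97 to 10.30 and 11.01 to 10.37), *Slc25a20*, the carnitine-acylcarnitine carrier (9.38 to 8.75), and *Acadvl*, the very long chain acyl-CoA dehydrogenase (9.26 to 8.65). The one gene on the other side was *Cpt1a*, the carnitine palmitoyltransferase that admits fatty acids to the mitochondrion, at 8.29 on WT-CT and 8.94 on cKO-CT. Peroxisomal oxidation had a median of -0.20 over 21 genes with none past 1.5-fold. *Ppara*, the nuclear receptor for fatty acids and acylethanolamides, was 8.50 on WT-CT and 7.59 on cKO-CT (1.87-fold) and lay at 6.55 and 6.31 on the HFD arrays.

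RNA levels of enzymes that make fat from carbohydrate were lower as well. De novo lipogenesis had 6 of 19 genes lower by at least 1.5-fold, none higher and a median of -0.47. *Acly* (ATP citrate lyase), the source of cytosolic acetyl-CoA, was 11.76 on WT-CT and 10.83 on cKO-CT, and *Acaca*, acetyl-CoA carboxylase, was 11.76 and 10.95. *Elovl6*, which extends palmitate, was 12.07 and 11.27, and *Thrsp*, a lipogenic protein induced by thyroid hormone and carbohydrate, was 11.22 and 10.48. *Me1* (malic enzyme) and *Hsd17b12* (a reductase of elongation) completed the 6. All 8 genes of NADPH supply and the pentose phosphate route lay below 0, and *Tkt* (transketolase) passed 1.5-fold together with *Me1*.

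Neighbouring routes showed single enzymes past the size. *Gpd2* and *Gpd1*, the mitochondrial and cytosolic glycerol-3-phosphate dehydrogenases, were 10.19 to 9.38 and 12.34 to 11.69, the 2 lower genes of 17 in triglyceride synthesis. In cholesterol synthesis, 2 of 19 were lower, *Idi1* (isopentenyl isomerase) at -0.61 and *Sqle* (squalene epoxidase) at -0.60, with 16 of 19 below 0. *Pfkl*, the liver-type phosphofructokinase, was the 1 lower gene of 20 in the glycolysis list (9.04 to 8.30), against 4 after cyclic loess. That list includes *Pigq* (-0.01), which is not a glycolytic enzyme. *Pygl* (glycogen phosphorylase) and *Gbe1* (branching enzyme) were the 2 lower genes of 22 in glycogen metabolism. *Pcyt2*, the rate-setting enzyme of phosphatidylethanolamine synthesis, was 7.56 and 6.93, the only 1 of 20 phospholipid genes past the size.

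Several adipocyte programmes had medians no further than 0.15 from 0. Lipolysis had a median of 0.15 with 15 of 18 genes above 0. Of the 18, 14 lay above 0 on both diets (77.8%), against 30.5% of all genes above background. Its 2 genes past 1.5-fold were *Adcy5*, an adenylyl cyclase (7.53 and 8.34), and the neuropeptide Y receptor *Npy1r*, which was above background on cKO-CT only. Insulin signalling had no gene of 25 past the size, and the circadian clock had none of 17. Breakdown of ketone bodies and branched-chain amino acids had none of 25 either, but 18 of its genes lay below 0 and its median was -0.14. Among 28 adipogenic and lipogenic transcription factors, *Ppara* alone passed, and *Pparg*, the master factor of adipocytes, was 10.79 and 10.85. The list had a median of 0.08. Lipid droplet proteins had 2 of 14 lower, *Cidea* (10.38 to 9.63) and *Cideb* (5.75 to 5.14), both members of the family that fuses droplets, while *Cidec*, the member typical of white fat, was 12.67 and 13.03. *Cideb* was below background on cKO-CT and no longer passed after median centring or cyclic loess.

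Some genes of the adipokine list showed the opposite side, while the list as a whole was balanced, with a median of 0.02, 11 genes above 0 and 11 below. Of 22 adipokines, 5 were higher by at least 1.5-fold (3 after cyclic loess, without *Cmklr1* and *Retnla*) and none was lower. *Lep* (leptin) was 10.72 on WT-CT and 11.73 on cKO-CT, with 12.06 and 12.54 on HFD. The others were *Sfrp5*, *Lbp*, *Cmklr1*, the chemerin receptor (8.72 and 9.36), and *Retnla*, a resistin-like protein also made by macrophages (9.99 and 10.61). *Pltp*, the phospholipid transfer protein, was 9.96 and 10.98, and *Abcg1*, a sterol exporter, 7.38 and 7.96. In a list of 17 genes, imprinted and linked to expansion of fat except for *Nckap1* (0.20), *Mest*, *Peg3* and *Slc38a4* were higher. *Mest* was 10.06 and 11.00. *Slc38a4* was below background on WT-CT, at 4.96 and 5.69 on CT, and was 6.72 and 4.72 on HFD.

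Genes of the cytoskeleton had the largest share past 1.5-fold on the higher side among the 79 lists. Of 38 genes of the actin cytoskeleton and focal adhesions, 18 were higher by at least 1.5-fold (11 after cyclic loess), none was lower and 35 lay above 0, with a median of 0.53. *Fscn1*, which bundles actin filaments, was 7.76 on WT-CT and 8.67 on cKO-CT. *Palld* (palladin), a scaffold of stress fibres, was 6.10 and 6.99, and *Tns3* (tensin 3), which couples integrins to actin, was 6.40 and 7.26. *Tagln2*, *Capg* and *Cnn2*, which bind or cap actin, had ratios from 0.74 to 0.76. Integrins, the receptors at the other end of focal adhesions, had 22 of 27 genes above 0 with a median of 0.22, and the 2 past 1.5-fold were *Itgb2* and *Itgax*, both of leukocytes.

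The smooth muscle contractile list was less uniform. It had 5 of 26 genes higher and a median of 0.28. *Acta2* led at 1.48 (2.78-fold), followed by *Synpo2* at 1.11 (7.28 and 8.38), *Hspb1*, a small heat shock protein of contractile cells (9.47 and 10.26), *Myl9*, the regulatory myosin light chain (8.0 and 8.75), and *Csrp1*, a LIM protein (9.16 and 9.82). The defining markers of differentiated smooth muscle were spread, with *Myh11* at 0.49, *Tagln* at 0.34, *Cnn1* at 0.09 and *Des* at -0.09. *Acta2* thus stood 1.48 above its WT-CT level while 4 other markers of the same cells lay within 0.5 of theirs. *Srf*, the factor that binds CArG boxes in contractile genes, was 6.98 and 7.53.

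A list that mixes targets of YAP or SRF with factors and regulators of these pathways had 5 of 22 higher (3 after cyclic loess). Its median was 0.38, and members that did not rise included *Amotl2* at 0.05, *Nt5e* at 0.02 and *F3* at -0.29. The 5 higher genes were *Ccn1*, *Thbs1*, *Vgll3*, a partner of TEAD factors (7.62 and 8.62), *Ccn2* (7.35 and 7.97) and *Ajuba*, a LIM protein of the Hippo pathway (6.28 and 6.88). *Wwtr1*, which encodes the YAP relative TAZ, was 8.46 and 9.01. Immediate early genes, which answer stretch and growth factors within minutes, had 2 of 31 higher and 2 lower, with a median of 0.10.

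**Figure D4:**
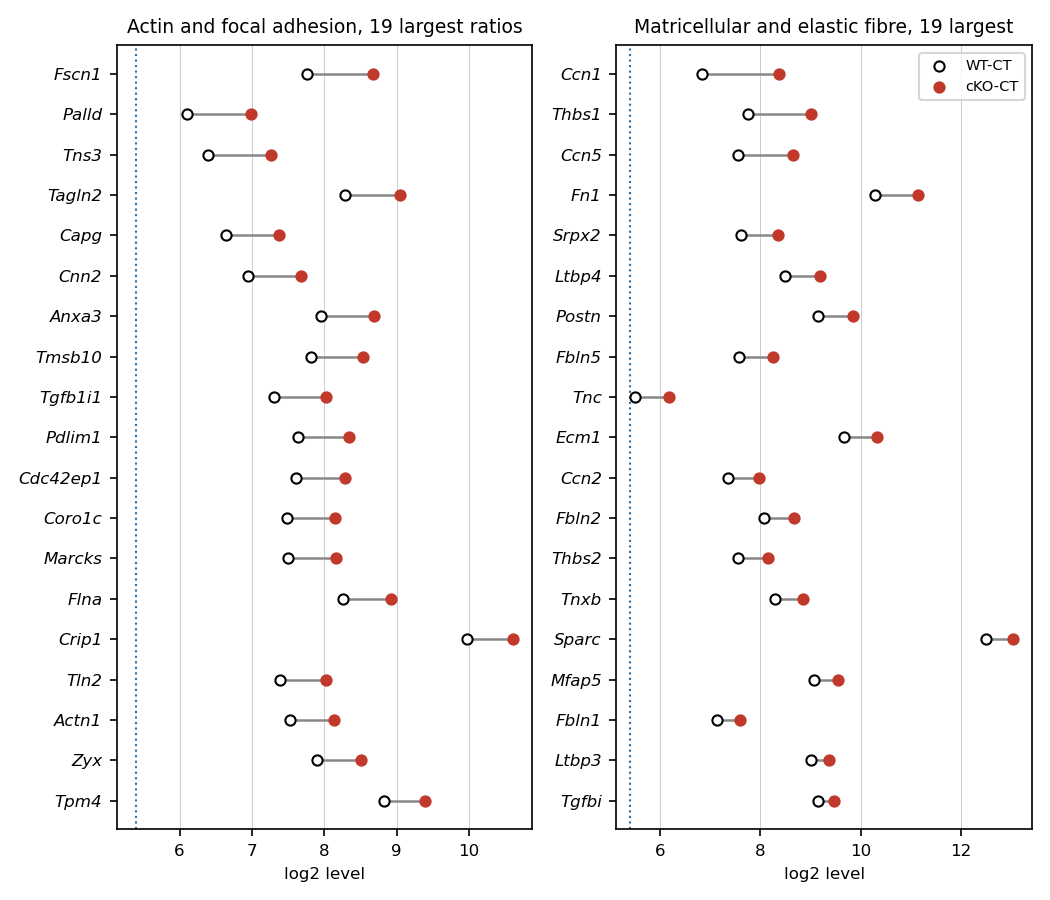
Log2 levels on WT-CT (open circles) and cKO-CT (red circles) for the 19 largest ratios among actin cytoskeleton and focal adhesion genes (left) and among matricellular, fibronectin and elastic fibre genes (right), with the higher of the 2 *Olfr* levels dotted. All genes shown lie to the right of background on both arrays, and the longest step is that of *Ccn1*, from 6.83 to 8.37.

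The promoters of 4 of these genes are shown because they carry the letters that SRF and TEAD factors bind. They come from RefSeq on GRCm38.p6 and end upstream of the gene's start. Capitals mark the CArG box in *Myl9* and *Srf*, the TEAD core GGAATG in *Acta2*, and its reverse complement in *Ccn1*. The stretches are chr19:34255474-34255559 on the minus strand for *Acta2*, chr3:145650043-145650128 on the minus strand for *Ccn1*, chr2:156775263-156775352 on the plus strand for *Myl9* and chr17:46556175-46556284 on the minus strand for *Srf*.
Acta2: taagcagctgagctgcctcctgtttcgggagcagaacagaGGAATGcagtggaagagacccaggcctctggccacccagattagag
Ccn1: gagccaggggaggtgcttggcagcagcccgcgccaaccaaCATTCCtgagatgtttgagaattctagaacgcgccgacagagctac
Myl9: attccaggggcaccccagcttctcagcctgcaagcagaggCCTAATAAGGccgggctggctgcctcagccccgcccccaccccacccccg
Srf: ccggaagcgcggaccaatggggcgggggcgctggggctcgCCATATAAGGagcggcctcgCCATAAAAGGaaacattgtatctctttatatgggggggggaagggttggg

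Windows from 250 bases before to 50 after the start were searched on both strands in 27025 genes. The CArG box was found in 2 of 21 smooth muscle promoters (*Myl9* and *Srf*) and in 3 of 25 immediate early promoters (*Egr2*, *Dusp5* and *Zfp36*), that is in 9.52% and 12%, against 1.81% of all promoters. In *Srf* it occurred at -82 and again at -62. GGAATG was found in 8 of 21 smooth muscle promoters (38.1%), among them *Acta2* at -146, and in 3 of 20 matricellular promoters (15.0%), among them *Ccn1*, against 16.58% of all. The estrogen-related receptor element TCAAGGTCA was found in 0.47% of all promoters. It was found in 1 of 17 of the citric acid cycle and 1 of 10 of complexes II and III, both *Sdhd*, and in 1 of 15 of ATP synthase (*Atp5g3*). None was found in 36 promoters of complex I, 17 of complex IV, 17 of the brown and beige list, 16 of fatty acid oxidation and 13 of pyruvate entry. The matricellular share was thus no larger than that of all promoters. A match describes letters in this window and says nothing of binding.

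Matricellular proteins, fibronectin and elastic fibre components were higher in cKO-CT, whereas the median collagen was not. Of 30 matricellular and elastic fibre genes, 12 were higher by at least 1.5-fold (8 after cyclic loess), none was lower, and the median was 0.51. *Thbs1*, which activates latent TGF-β, was 7.75 on WT-CT and 9.01 on cKO-CT, and *Fn1* (fibronectin) was 10.30 and 11.15. *Ltbp4*, which tethers latent TGF-β to elastic fibres, was 8.49 and 9.18, and *Postn* (periostin) was 9.16 and 9.84. The 33 collagens had a median of -0.004, with 16 above and 17 below 0, and the 13 collagens with a mean level of at least 7 had a median of 0.29. Their 1 gene past the size was *Col13a1*, a membrane collagen, which was lower at 6.56 and 5.94. *Col6a3* and *Col1a1* had ratios of 0.55 and 0.44, inside the size.

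Other matrix groups lay between these. Proteoglycans and basement membrane had 5 of 34 higher, led by *Aspn* (asporin, 6.95 and 7.92), *Prelp* (11.39 and 12.28) and *Hspg2* (perlecan, 9.48 and 10.29). Collagen processing had 2 of 22 higher, the prolyl hydroxylase *P3h2* and the chaperone *Rcn3*, and a median of 0.38. Among matrix proteases and inhibitors 4 of 31 were higher, namely *Adamts5*, which cleaves aggrecan and versican, the serine proteases *Htra3* and *Htra1*, and *Fap*, a fibroblast surface protease. The 22 *Mmp* genes had none past 1.5-fold. TGF-β, BMP and activin signalling had 4 of 39 higher and a median of 0.29. *Pmepa1*, an inducible brake on TGF-β signalling, was 9.52 and 10.36, and *Bmp3* was 7.25 and 8.04. Wnt ligands themselves had none of 19 past the size, while *Sfrp5* and the R-spondin receptor *Lgr4* were higher and *Lgr6* was lower.

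Endothelial genes were higher in cKO on both diets. On CT, 10 of 36 were higher by at least 1.5-fold (3 after cyclic loess), none was lower, 34 lay above 0 and the median was 0.45. On HFD, in arrays that share none with the CT pair, 7 were higher, none was lower and the median was 0.41. Of the 36 genes, 32 lay above 0 in both pairs (88.9%), against 30.5% of all genes above background. *Cd93*, a lectin-like receptor of endothelium, was 8.0 in WT and 8.66 in cKO on CT, and 8.36 and 9.18 on HFD. *Sox7* was 7.04, 7.69, 7.40 and 8.15, and *Sox18*, a second factor of the same family, was 7.54, 8.20, 8.02 and 8.61. For these genes each cKO array exceeded the WT array of its diet.

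The rest of the list followed in smaller steps. *Aplnr*, the apelin receptor, was 7.03 and 7.70 on CT, *Dll4*, the Notch ligand of sprouting vessels, was 7.17 and 7.78, and *Robo4*, which stabilises vessels, was 7.46 and 8.11. *Ptprb* (VE-PTP), *Ets2* and *Myct1* also passed 1.5-fold. Of the defining markers, *Cdh5* (VE-cadherin) was 10.07 and 10.63, *Pecam1* 8.05 and 8.45, and *Kdr*, the main VEGF receptor, 8.04 and 8.54. *Lyve1*, which also marks a class of macrophages, had the lowest HFD ratio of the list at -0.47. Pericyte and mural cell genes had 14 of 14 above 0 on CT, with *Anpep*, *Ednrb* and *Pdgfrb* past the size (1 gene after cyclic loess, since *Ednrb* and *Pdgfrb* no longer passed), and 10 of the 14 were above 0 on HFD too. Angiogenic and hypoxia genes had 3 of 29 higher, *Adm* (adrenomedullin), *Unc5b* and *Aplnr*.

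Macrophage genes were higher in cKO on CT and lower in cKO on HFD. Of 28 pan-macrophage and myeloid genes, 11 were higher by at least 1.5-fold on CT (7 after cyclic loess) with a median of 0.50, and the HFD median was -0.32 with 4 lower. Of 23 resident macrophage genes, 8 were higher on CT (5 after cyclic loess) with a median of 0.51, and the HFD median was -0.34. In the 51 genes of both lists, 43 lay above 0 on CT and below 0 on HFD (84.3%), against 27.9% of all genes above background. *Laptm5*, a lysosomal membrane protein of leukocytes, was 7.72 in WT and 8.61 in cKO on CT, and 8.70 and 8.43 on HFD. *Lyz1* (lysozyme) was 7.80, 8.68, 8.95 and 8.18, and *Folr2*, the folate receptor of resident macrophages, was 8.21, 8.82, 9.09 and 8.40. WT-CT was the lowest array for all 3 genes and WT-HFD the highest.

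Genes of antigen presentation and complement showed the same sign on CT. *Cd74*, the invariant chain, was 10.02 and 10.76, *H2-Eb1* 9.30 and 9.94 and *H2-DMa* 7.15 and 7.77, the 3 of 10 class II genes past the size (1 after cyclic loess). MHC class I had none of 10. Complement had 5 of 27 higher, of which *C1qc* and *C5ar1* are of macrophages, while *C6*, a component of the attack complex, was higher in cKO on both diets (6.21 and 7.03, then 6.77 and 7.41). The lectins of the *Cd209* family had 7 of 7 genes above 0, with *Cd209a* (7.21 and 7.93) and *Cd209d* (8.26 and 8.97) past the size. Genes of lipid-associated macrophages and lysosomes, the cells that gather around dying adipocytes, had none of 25 higher and a median of 0.14.

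Lymphocyte and soluble signals changed little. T cell genes had none of 14 past the size, and mast cell and eosinophil genes none of 14. B cell genes had 4 of 15 lower, of which *Cd79a* and *Rag1* were at background on both arrays and the surrogate light chains *Vpreb1* and *Vpreb2* were at or near it. Of 34 chemokine ligands, *Ccl11* (eotaxin, 8.91 and 9.52) and *Ppbp* were higher and *Cxcl2*, at background on both arrays, was lower, and of 37 cytokines and receptors *Il15* alone was higher. Interferon-stimulated genes had 4 of 30 higher. The 2 of them above background were *Ifi27l2a* (10.41 and 11.24) and *Sting1*, the sensor adaptor for cytosolic DNA (6.57 and 7.38). Of the lipopolysaccharide sensing list, *Casp12* and *Casp4*, inflammatory caspases, were higher besides *Lbp*, among 4 of 27.

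Stromal progenitor genes resembled macrophages in their relation to diet. On CT, 5 of 22 were higher with a median of 0.37, and the HFD median was -0.34 with 4 lower. The 5 were *Fn1*, *Igfbp5*, *Anxa3*, *Cd24a*, and *Pi16*, a marker of early adipocyte progenitors, which was 8.02 in WT and 8.61 in cKO on CT, and 9.27 and 7.69 on HFD. The WT-HFD array also carried far more muscle RNA than cKO-HFD, with a median HFD ratio of -3.67 over 36 skeletal muscle genes and *Ckm* at 12.78 against 8.62. Its part in the other HFD ratios was not tested.

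Genes of lipogenesis and sterol synthesis turned the other way between diets. On CT, 15 of the 19 lipogenic genes were below 0 while their HFD ratio was above 0, and 14 of the 19 cholesterol genes did the same, with HFD medians of 0.24 and 0.32. *Me1* was 11.91 in WT and 11.26 in cKO on CT, and 10.11 and 10.82 on HFD. *Insig1*, which restrains sterol synthesis, was 10.60, 10.05, 9.04 and 9.86. *Elovl6* was 12.07 and 11.27 on CT and 7.02 and 7.46 on HFD, so the arrays of the 2 diets differed more than those of the 2 genotypes.

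**Figure D5:**
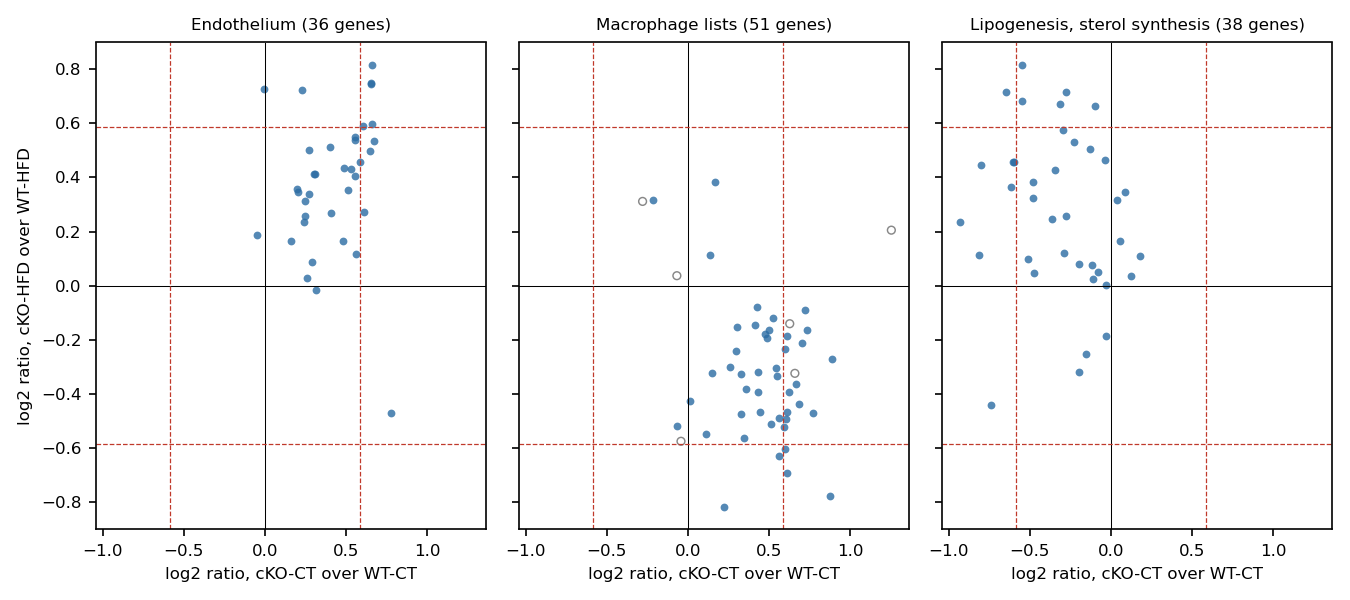
Log2 ratio of cKO-CT over WT-CT against that of cKO-HFD over WT-HFD for endothelial genes (left), both macrophage lists (middle), and lipogenic and sterol synthesis genes (right), 1 point a gene, open where at background on both CT arrays, with 1.5-fold as red dashed lines. Most endothelial genes lie in the upper right, most macrophage genes in the lower right and most lipid-making genes in the upper left, and the 2 pairs of arrays share no array.

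Over all genes the ratios of the diet pairs were unrelated, with a correlation across genes of -0.014 and of 0.025 among genes above background, given as a description since genes are not replicates. Past 1.5-fold, 24 genes were higher in cKO on both diets, which is 24 of 327 on CT and 24 of 207 on HFD, and 5 of them are endothelial (*Cd93*, *Sox18*, *Sox7*, *Myct1* and *Dll4*). *Lipf* was 5.65 and 7.15 on CT and 7.84 and 9.29 on HFD. *Med28* was 7.60 and 8.66, then 7.22 and 8.26, and *Ret* was 6.25 and 7.37, then 7.48 and 8.25. *Oxtr*, the oxytocin receptor, was 6.33 and 7.23, then 7.91 and 9.11. For these 4 genes the cKO array exceeded the WT array on each diet.

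Over all 19938 genes, 327 were higher and 303 lower past 1.5-fold on CT, and 207 were higher and 420 lower on HFD. Of the 53 genes of both skeletal muscle lists, 14 were lower on CT and 36 on HFD. Another 17 genes were lower on both diets, 9 of them of skeletal muscle. Those outside muscle included *Gpd2* (10.19 to 9.38, then 8.19 to 7.43) and *Phospho1*, a phosphatase of phosphocholine that is abundant in brown fat (9.20 to 8.45, then 7.17 to 6.23). *Coq8a*, which supports coenzyme Q synthesis, was 8.98 to 8.25 and then 7.95 to 7.30. A further 17 genes were higher on CT and lower on HFD, and 7 were lower on CT and higher on HFD, of which *Elovl3* and *Me1* were above background on both CT arrays. *Napepld* itself was in none of these sets.

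Enzymes around the deleted one varied little. Of 14 genes of N-acylethanolamine metabolism, 3 passed 1.5-fold, all near background. They were *Gdpd1*, which was higher (4.70 and 5.40), and the lower *Plaat5* (5.52 and 4.89) and *Plaat1* (5.19 and 4.21). *Naaa*, an amidase that degrades N-acylethanolamines, was 8.97 and 9.17, and *Gde1*, a phosphodiesterase of a parallel route, was 8.79 and 8.46. Among 18 genes of 2-arachidonoylglycerol and receptors, *Plce1*, a phospholipase C, was higher (7.36 and 8.06) and *Ppara* lower. *Daglb*, which forms 2-arachidonoylglycerol, was 7.03 and 7.60.

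Other lipid mediator genes gave single members. *Pla2g5*, a secreted phospholipase, *Alox5ap*, which presents arachidonate to 5-lipoxygenase (7.0 and 7.64), and the epoxide hydrolase *Ephx1* (7.56 and 8.22) were the 3 of 31 eicosanoid genes higher (1 after cyclic loess, without the last 2), and *Ptgdr2*, a prostaglandin D2 receptor near background, was lower. In the ceramide list of 31, *Cerk* (ceramide kinase) was higher and *Elovl3* lower. Of 24 genes of liver-type secreted proteins 4 were higher, *Serpina1c*, *Mup3*, *Igfals* and *Fabp1*, the last at background on both arrays. *Igfals*, a carrier of insulin-like growth factors, was 7.25 and 7.86, and *Alb* (albumin) was 10.18 and 9.77.

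Stress and growth lists held few members past the size. Antioxidant enzymes had 3 of 34 higher (1 after cyclic loess), namely *Nox4*, *Ephx1* and *Sod3*, the extracellular superoxide dismutase (9.34 and 9.97), heat shock and chaperones had *Hspb1* and *Dnajb4* of 15, and endoplasmic reticulum stress had *Casp12* and the coat protein *Sec24d* of 29. In the cell cycle list, 3 of 34 were lower, all at background on both arrays. *Smox*, which oxidises spermine, was 7.25 and 7.93 on CT and 8.25 and 6.92 on HFD. Retinoid genes had *Dhrs3*, a retinal reductase, higher (9.72 and 10.32) and 3 near background lower.

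Skeletal muscle genes were uneven on CT. In the list of fast and general muscle genes, 9 of 36 were lower and 1 was higher, with a median of -0.17, while in slow fibre genes 6 of 18 were lower with a median of -0.33 (0.06 among the 3 with a mean level of at least 7). *Mybpc1*, a slow isoform of myosin-binding protein C, was 7.06 and 5.39, *Mb* (myoglobin) was 8.04 and 6.82, and *Myh7*, slow myosin, was 6.43 and 5.25. *Myh1*, a fast myosin, was 7.72 and 6.62. Of the 5 muscle markers, *Ckm*, *Acta1* and *Myh4*, the last a myosin of the fastest fibres, had ratios of 0.24, 0.33 and 0.24, and *Tnnt3* and *Mylpf*, of fast fibres too, -0.15 and -0.28. Over the list of fast and general genes, 28 of 36 lay below 0. The part of muscle RNA in the ratios of *Fabp3*, *Cox7a1*, *Cox8b* and the respiratory genes was not tested.

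Large gene families without a link to fat showed how often genes passed the size on these arrays. Of the 1015 *Olfr* genes whose symbol ends in a number (the others are mostly pseudogenes), 8 were higher and 23 lower by at least 1.5-fold with a median of -0.06, of 347 *Zfp* genes 10 were higher and none lower, and of 48 keratins 1 was lower. Keratinocyte genes had 5 of 17 lower, of which *Tmem79* (6.81 and 6.16) and *Krtdap* (6.29 and 5.67) exceeded background (2 of 17 after cyclic loess, *Krtdap* not among them), and mammary epithelium had 2 of 15 lower, *Lgr6* and *Pgr*, the progesterone receptor, which was at background.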

How the data were processed

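RNA of subcutaneous adipose tissue, pooled within each group, was measured on Affymetrix MoGene 1.0 ST arrays, with 1 array for each genotype (WT, cKO) on each diet (CT, HFD), 4 in all. The deposited values are log2 levels of 35556 probe sets from the authors' RMA (background correction, quantile normalization and a summary over the probes of a set). The methods name RMA-Sketch in the APT tools and the submitters' processing notes name Affymetrix Expression Console, without versions, and no genome build is given in the sources used here. Quantile normalization gives all arrays the same distribution, so ratios are relative to the other genes of the array. Detection P values were not used here.

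Gene names came from the array's platform annotation and can be old. Of the probe sets 21789 named 1 gene, 1621 named several and 12146 named none, and only the first kind was used. A gene's level was the mean of its probe sets (999 of 19938 genes had more than 1). Log2 ratios of cKO over WT were taken within CT and, beside it, within HFD. The size for calling a gene higher or lower was 1.5-fold, the size the study used. With 1 array a group nothing was tested, precision is limited by the number of arrays, and lists are described by counts and medians beside those of all genes. Background was the 95th percentile of *Olfr* genes on each array.

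The contrast, the 79 gene lists (1725 of 1871 symbols measured) and the 66 families by symbol were chosen with earlier results of these data known, and 4 misplaced symbols were taken out of 3 lists after their values were seen. Named genes are *Napepld*, the 12 largest ratios each way (level 7 or more on WT-CT or cKO-CT), the 6 largest ratios above background in each list, cell type markers, and members of counts of 5 or fewer. *Acot7*, *Acot8*, *Acot9*, *Atp5g3*, *Atp5j*, *Coq8a*, *Cs*, *Ebf2*, *Ets2*, *Folr2*, *Oxtr*, *Postn*, *Pparg*, *Ppargc1b*, *Ptprb* and *Robo4* were named after their values were seen. Promoters of 27025 genes were read from RefSeq (GRCm38.p6) and matched by symbol.

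As alternatives, the brightest probe set stood for a gene, or values were changed by centring on the median gene or by cyclic loess between the 4 arrays (span 0.7, 3 iterations), or counts were limited to genes above background, to a mean level of at least 7, to 2-fold, or to genes other than acinar, muscle and receptor genes. Calls of each list after cyclic loess were counted after the results were seen. The steps were tested on simulated data. The tools were limma 3.58.1 in R 4.3.3 for cyclic loess, and Python 3.11.15 (pandas 2.3.3, numpy 2.4.6, matplotlib 3.10.9) for all else.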

Additional observations from a re-analysis of the deposited data

How the results depend on the processing

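Cyclic loess moved the medians of the brown and beige list to -0.72, of fatty acid oxidation to -0.45, of lipogenesis to -0.56 and of pan-macrophage genes to 0.41. It brought the median of genes above background from 0.05 to 0.01, and of the 473 named genes 45 no longer passed 1.5-fold while 21 came to pass it. Citric acid cycle genes lower by 1.5-fold went from 1 to 6, pyruvate dehydrogenase and glycolysis genes each from 1 to 4 and complex I genes from 1 to 3, and other lists not named with their loess counts changed by 2 genes at most, while *Napepld* itself reached -0.62. With a mean level of at least 7, the medians were -0.76 for brown and beige, 0.56 for pan-macrophage, 0.45 for smooth muscle and, from *Ctrb1* as the 1 acinar gene left, -3.23, and 176 genes were higher and 54 lower by 1.5-fold. At that level the medians of 3 slow fibre, 7 retinoid and 13 collagen genes were 0.06, 0.05 and 0.29 where the whole lists lay below 0, and 1 B cell gene was left, at 0.17. Other sign changes concerned lists whose median lay within 0.1 of 0. Among genes above background on at least 1 array, the acinar median was -1.60 and 159 genes were lower. The 19 acinar genes kept by this limit all exceeded background on WT-CT and 9 did on cKO-CT, so the limit itself favoured genes high on WT-CT. At 2-fold, 24 genes were higher and 37 lower. The other settings kept the counts within 1.5 times, at 339 and 308 with the brightest probe set, 416 and 255 with median centring, 277 and 254 with cyclic loess, and 316 and 242 without acinar, muscle and receptor genes. No paired analysis was possible because each group is 1 pooled array.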
